A study of Mus musculus with 6 samples.

Results

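The genes described here mark lipid-associated macrophages, a state of macrophages described in fatty liver and in fat tissue of obese animals. They were 10 listed genes, and the platform's annotation gave 9 of them a probe set with a single gene symbol, out of 19938 genes tested. Where a gene has several such probe sets the one used was chosen by the highest mean over all 6 arrays, but each of these 9 genes had 1, so the choice never applied. The remaining gene, Spp1, which encodes osteopontin, was not analysed here because no listed probe set carries its name. Liver RNA came from C57BL/6 mice, an inbred strain, that ate either a regular diet (RD) or a high fat diet (HFD) freely for 2 days, with 3 biological replicates and 3 arrays per diet. Whether a replicate was 1 mouse or a pool is not stated. All titles share the letters NI, whose meaning the labels do not give, so anything all groups have in common beyond strain and tissue is unknown here, as are the animals' age, their sex and what the diets contained. Values are log2 expression per probe set, a difference is HFD minus RD on that scale, and each SE, adjusted p and 95% interval comes from limma fitted over all 19938 genes (Benjamini-Hochberg, two-sided). A gene is said to have risen or fallen where that adjusted p was under 0.05.

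TREM2 is a surface receptor of macrophages that binds lipids and lipoproteins. It has no signalling tail of its own and works through the adaptor DAP12, the product of Tyrobp, which recruits the kinase SYK. Macrophages that engulf lipid or dying cells switch on genes for lysosomal and adhesive proteins (Gpnmb, Cd63, Cd9), a secreted lectin (Lgals3), an elastase (Mmp12) and lipoprotein lipase (Lpl), and many carry the integrin CD11c (Itgax). In the liver this state is known mainly from long feeding and steatohepatitis, where it sits beside the resident Kupffer cells. None of these genes is restricted to such macrophages. Bile duct cells, endothelium and other leukocytes express several of them, and bulk RNA cannot tell more cells of a type from more RNA per cell.

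After 2 days of HFD 4 of these genes rose: Mmp12, Lgals3, Cd9 and Gpnmb. The receptor gene of the program, Trem2, did not pass the test, and its difference was slightly negative. The name of the list comes from what its genes are known for, and whole liver RNA holds no measure of such macrophages alone. Of the 9 measured 4 rose and 0 fell, where 3.11% of all genes rose and 2.24% fell. As many as 6 of 9 had all 3 HFD values above all 3 RD values, which held for 14% of all genes. The median difference over the 9 was 0.59, beside -0.0029 over all genes, and 8 of 9 differences were positive, beside 49.2% of all genes. The list was drawn up with results of these arrays in view, so these counts describe it and carry no test.

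The upstream sequences of the members that rose are shown beside that of Trem2, which did not pass the test. Each is the 250 bases before a transcription start in RefSeq (build GRCm38.p6), 5′ to 3′ on the gene's strand, with matches to any of 4 motifs in capitals. The motifs were searched on both strands. TGANTCA, where N is any base, is a loose pattern for the site of the stress-responsive factor AP-1. GAGGAAG is a core site of the myeloid factor PU.1. CACGTG is the E-box read by MITF and TFEB, and TATAAA is the TATA box. No pair of these motifs overlapped in the windows shown. Mmp12 has an additional annotated start inside the gene, which is given as well. The windows lie at chr9:7344147-7344396, plus strand (Mmp12, outer start), chr9:7347124-7347373, plus strand (Mmp12, inner start), chr14:47373610-47373859, plus strand (Lgals3), chr6:125494761-125495010, minus strand (Cd9), chr6:49036268-49036517, plus strand (Gpnmb) and chr17:48346151-48346400, plus strand (Trem2).
Mmp12 outer start: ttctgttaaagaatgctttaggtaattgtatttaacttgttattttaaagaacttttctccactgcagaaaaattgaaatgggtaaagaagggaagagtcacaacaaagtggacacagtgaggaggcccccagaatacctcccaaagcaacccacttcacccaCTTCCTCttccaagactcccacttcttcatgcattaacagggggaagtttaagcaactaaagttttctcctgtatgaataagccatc
Mmp12 inner start: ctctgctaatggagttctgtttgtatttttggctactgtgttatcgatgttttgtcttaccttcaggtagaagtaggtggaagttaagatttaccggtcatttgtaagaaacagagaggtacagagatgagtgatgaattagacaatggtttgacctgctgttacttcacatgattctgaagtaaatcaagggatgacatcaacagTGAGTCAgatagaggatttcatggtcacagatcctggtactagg
Lgals3: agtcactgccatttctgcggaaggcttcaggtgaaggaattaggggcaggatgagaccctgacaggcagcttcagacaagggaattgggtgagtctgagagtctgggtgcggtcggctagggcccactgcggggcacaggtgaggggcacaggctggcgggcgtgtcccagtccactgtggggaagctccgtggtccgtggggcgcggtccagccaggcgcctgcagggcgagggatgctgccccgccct
Cd9: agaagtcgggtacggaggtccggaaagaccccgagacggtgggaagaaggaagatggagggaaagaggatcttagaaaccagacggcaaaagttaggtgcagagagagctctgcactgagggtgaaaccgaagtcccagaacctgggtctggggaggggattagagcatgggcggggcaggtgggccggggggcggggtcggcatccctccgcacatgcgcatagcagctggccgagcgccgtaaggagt
Gpnmb: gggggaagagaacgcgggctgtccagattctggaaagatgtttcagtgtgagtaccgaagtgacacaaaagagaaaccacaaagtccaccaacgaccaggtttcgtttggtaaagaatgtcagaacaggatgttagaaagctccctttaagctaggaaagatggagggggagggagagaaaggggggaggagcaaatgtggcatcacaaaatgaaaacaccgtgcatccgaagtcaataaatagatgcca
Trem2: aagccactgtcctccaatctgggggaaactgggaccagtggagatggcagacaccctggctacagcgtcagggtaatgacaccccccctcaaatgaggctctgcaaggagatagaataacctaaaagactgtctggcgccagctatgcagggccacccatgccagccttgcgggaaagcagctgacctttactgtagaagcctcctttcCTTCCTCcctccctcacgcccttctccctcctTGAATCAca

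The outer start of Mmp12 held 1 PU.1 match on the opposite strand, beginning 87 bases before the start, and its inner start held 1 AP-1 match, TGAGTCA, beginning 44 bases before the start. Trem2 held both, a PU.1 match on the opposite strand at 41 bases and the AP-1 match TGAATCA at 9 bases. The windows of Lgals3, Cd9 and Gpnmb held none of the 4. Among the members not printed, Cd63 held a PU.1 match on the opposite strand at 60 bases and Itgax the AP-1 match TGAGTCA at 56 bases. Spp1, which has no expression value here, held a PU.1 match at 113 bases and a TATA box match at 211 bases at its outer start. An additional, inner start of Spp1 held none of the 4. Over all 32851 such windows in RefSeq, 6.75% held the AP-1 motif, 10.6% the PU.1 motif, 6.02% the E-box and 12.4% the TATA box. A match was therefore present in a member that rose and in members that did not. The table held windows for 8 of the 10 listed genes. The GC content of the windows was 66% for Lgals3, 61.6% for Cd9, 56% for Trem2, 47.2% for Gpnmb and 40% for the outer start of Mmp12, around a median of 52.4% for all windows.

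Neither the receptor gene Trem2 nor its adaptor gene Tyrobp passed the test, and their differences had opposite signs. Trem2 (probe set 10445781) had log2 values of 7.83, 7.81 and 7.86 in RD replicates 1 to 3 and of 7.65, 7.78 and 7.84 in HFD replicates 1 to 3. HFD replicates 1 and 2 lay below the narrow band of the RD values and HFD replicate 3 lay inside it, so the groups overlapped. The difference was -0.08 ± 0.07 (SE, n = 3 per diet; limma adjusted p = 0.619), with a 95% interval from -0.24 to 0.08. Tyrobp (probe set 10551883), its adaptor, had values of 9.67, 9.63 and 9.77 in RD and of 10.72, 10.01 and 10.30 in HFD. All HFD values lay above all RD values, and HFD replicate 1 was the highest. The mean went from 9.69 ± 0.07 to 10.34 ± 0.36 (SD, n = 3), a difference of 0.65 ± 0.16 (SE) that just missed the threshold (limma adjusted p = 0.052). Tyrobp passed without HFD replicate 2 (difference 0.82, limma adjusted p = 0.018) and with arrays centred on their medians (limma adjusted p = 0.041). The unequal change of Trem2 and Tyrobp was not itself tested. DAP12 also serves other myeloid and natural killer cell receptors, so its RNA is not a measure of TREM2.

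Itgax (probe set 10557895), the gene of CD11c, an integrin chain of dendritic cells and of some activated macrophages, stood out on 1 array. Its RD values were 6.34, 6.18 and 6.24 and its HFD values 7.09, 6.32 and 6.29. Only HFD replicate 1 lay above the RD range, and the other HFD values lay inside it. The difference was 0.31 ± 0.19 (SE; limma adjusted p = 0.434), and it shrank to 0.05 without HFD replicate 1.

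Lgals3 (probe set 10414360), which encodes galectin-3, a lectin that binds galactosides on cell surfaces and on damaged lysosomes, rose in HFD. Its RD values were 8.23, 8.16 and 8.27 and its HFD values 9.56, 8.92 and 9.04. The groups were apart by 0.65, with HFD replicate 1 the highest. The mean rose from 8.22 ± 0.05 to 9.17 ± 0.34 (SD, n = 3), a difference of 0.95 ± 0.15 (SE), or 1.94-fold (limma adjusted p = 0.012). Without RD replicate 2 the limma adjusted p was 0.056, with a difference of 0.93. Without HFD replicate 1 the difference was 0.76 and still passed (limma adjusted p = 0.0045).

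Mmp12 (probe set 10583056), the macrophage elastase that degrades elastin and other matrix proteins, had the largest difference of the 9 genes. The RD arrays read 6.35, 5.87 and 6.34 and the HFD arrays 7.44, 7.58 and 7.03. No HFD value came near the RD range, and the gap between the groups was 0.68. The mean rose from 6.18 ± 0.28 to 7.35 ± 0.29 (SD, n = 3), a difference of 1.17 ± 0.17 (SE), or 2.24-fold (limma adjusted p = 0.0083), which ranked 34 among the differences of 19938 genes. Gpnmb (probe set 10538187), a transmembrane glycoprotein of lysosomes and phagosomes, read 6.10, 6.14 and 6.03 in RD and 6.68, 6.49 and 6.88 in HFD. Its groups were apart by 0.35, and here HFD replicate 3, not 1, was the highest. The mean rose from 6.09 ± 0.06 to 6.68 ± 0.20 (SD, n = 3), a difference of 0.59 ± 0.10 (SE), or 1.51-fold (limma adjusted p = 0.016). Removing any RD array ended that call, with limma adjusted p = 0.060, 0.054 and 0.051 without RD replicates 1, 2 and 3.

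The RD means of Mmp12, Gpnmb and Itgax were low, and their HFD means were 7.35, 6.68 and 6.57. As a guide to background, 10 genes listed for little or no transcription in adult liver, such as the sperm protamine gene Prm2, had RD means between 3.87 and 7.29. Some genes of other lists that rose also had means inside that range in both diets, among them Olr1, Tspan8, Trem3, Timp1, Epcam and Cd300lb. Probe sets differ in how strongly they bind, so this range ranks no gene, and detection calls were not used here. A level near background makes a fold too small, and whether that applies to Mmp12, Gpnmb, Itgax or these other genes was not tested. The median difference over the 10 background genes was -0.05, and 0 of them passed the test in limma. An unadjusted p under 0.05 was found for 0 of them, beside 3926 of all 19938 genes.

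Cd9 (probe set 10548030), a tetraspanin that organises adhesion proteins in the plasma membrane, had the smallest adjusted p of the 9. Its RD values were 8.06, 8.24 and 8.50 and its HFD values 9.13, 9.12 and 9.35. The groups were apart by 0.63 and the HFD values lay close together. The mean rose from 8.27 ± 0.22 to 9.20 ± 0.13 (SD, n = 3), a difference of 0.93 ± 0.12 (SE), or 1.91-fold (limma adjusted p = 0.0044), and no removal of 1 array raised the adjusted p above 0.024. Cd63 (probe set 10367436), the tetraspanin of late endosomes and lysosomes, read 7.53, 7.26 and 7.42 in RD and 8.35, 7.95 and 7.59 in HFD. The HFD values were spread widely, and the lowest of them lay only 0.06 above the highest RD value. The difference was 0.56 ± 0.17 (SE; limma adjusted p = 0.113), and it passed without HFD replicate 3 (0.74, limma adjusted p = 0.038). Other tetraspanins gave 2 rises and 0 falls among 10 genes, where 3.11% of all genes rose and 2.24% fell. Their median was 0.13, and counts this small cannot be set against those shares. Tspan8, found on epithelia, rose by 0.60 ± 0.08 (SE; limma adjusted p = 0.0050) and the pan-leukocyte Cd53 by 0.75 ± 0.15 (limma adjusted p = 0.028). Tspan31 was at -0.26 ± 0.06 (limma adjusted p = 0.054). The count was 1 on removing HFD replicate 3 or any RD array, and 3 without HFD replicate 2.

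Lpl (probe set 10572130), the enzyme that hydrolyses triglyceride in lipoproteins, read 9.13, 9.14 and 9.69 in RD and 9.71, 9.76 and 9.54 in HFD. RD replicate 3 lay among the HFD values and made the groups overlap. The difference was 0.35 ± 0.15 (SE; limma adjusted p = 0.241). Without RD replicate 3 it was 0.54 and passed (limma adjusted p = 0.025). Of the 9 measured genes for partners and relatives of the lipase 0 passed in limma, and the median difference was -0.05. An unadjusted p under 0.05 was found for 4 of them, beside 3926 of all 19938 genes. Lipg, the gene of endothelial lipase, was at -1.25 ± 0.35 (limma adjusted p = 0.088), the lipase inhibitor gene Angptl8 at 0.45 ± 0.15 (limma adjusted p = 0.140) and the lipase activator gene Apoa5 at -0.16 ± 0.07 (limma adjusted p = 0.237). In this list 1 gene rose without RD replicate 3 and 1 fell without HFD replicate 2.

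**Figure D1:**
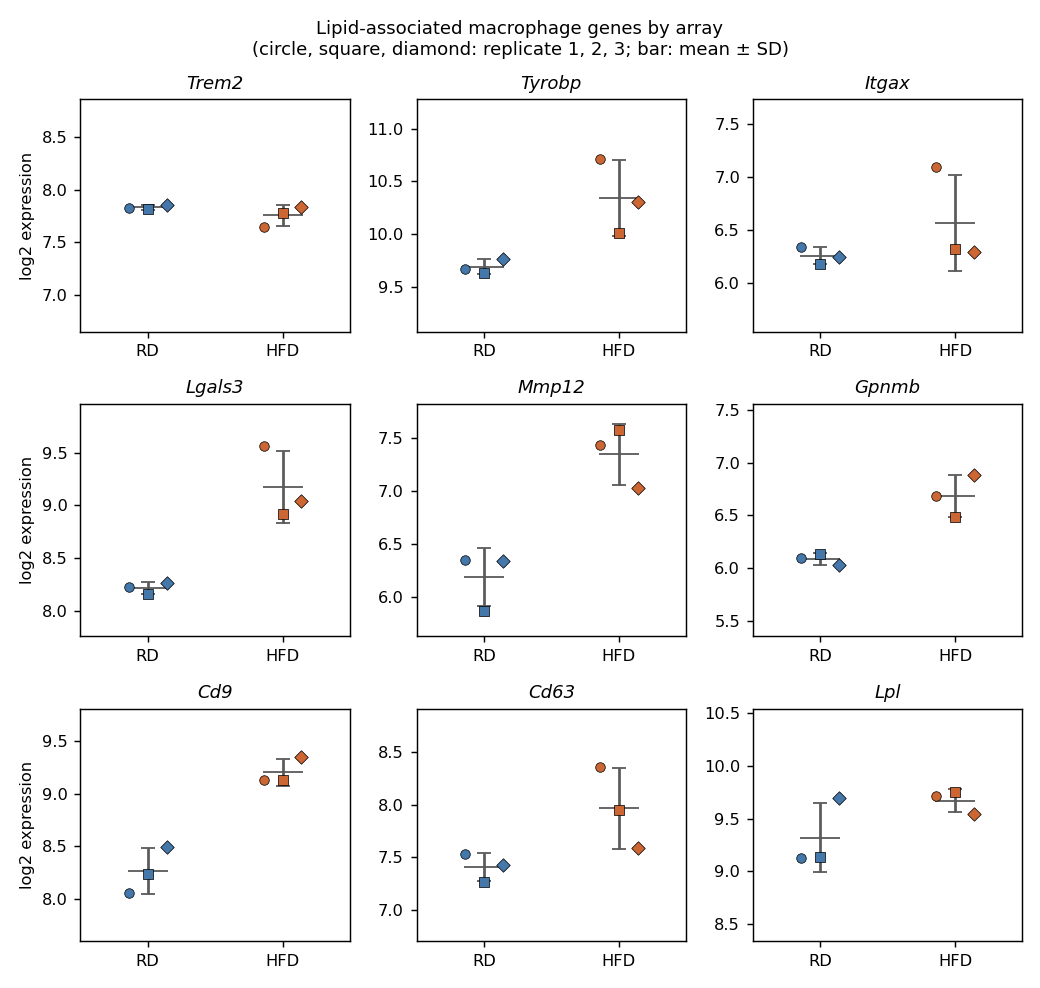
Log2 expression (y axis, the same span in every panel) of the 9 genes in the 3 RD arrays (blue) and 3 HFD arrays (orange), with the mean and SD of each diet as grey bars. All HFD values lie above all RD values for Mmp12, Lgals3, Cd9, Gpnmb, Tyrobp and, by only 0.06, Cd63. The diets overlap for Trem2, Lpl and Itgax, and the high HFD value of Itgax at 7.09 belongs to replicate 1.

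**Figure D2:**
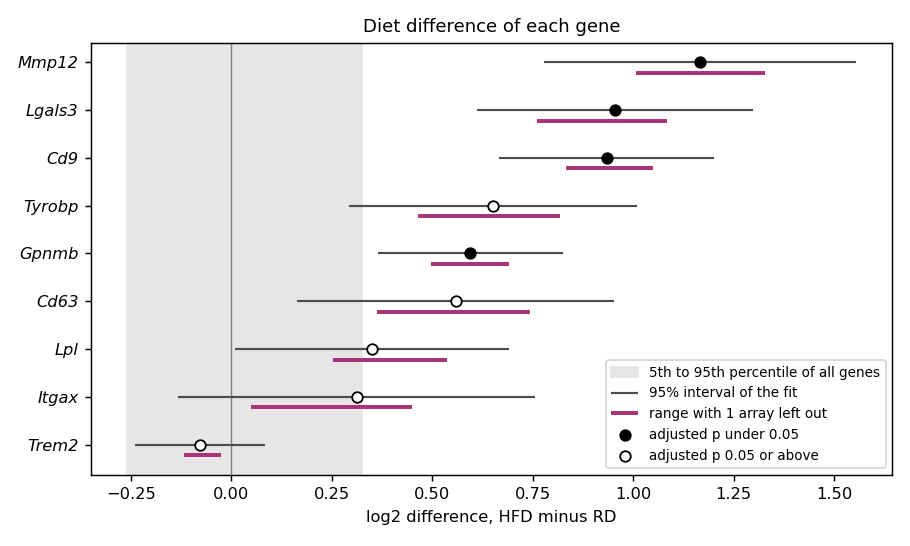
Log2 difference, HFD minus RD (x axis), of the 9 genes (y axis), with 95% intervals of the fit as thin grey lines and the range over the 6 fits that leave out 1 array as thick purple lines. The 4 filled points passed the test, the interval of Trem2 runs from -0.24 to 0.08, and the shaded band from -0.26 to 0.32 holds the 5th to 95th percentile of all genes.

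The wider program moved in both directions. Of 22 further genes known from lipid-laden macrophages, 3 rose and 2 fell, beside 3.11% and 2.24% of all genes. The list median was 0.11, and the counts were not tested against these shares. The falls were large. Fabp5, a fatty acid binding protein, had RD values of 10.44, 10.41 and 11.12 and HFD values of 8.24, 8.35 and 7.65, a difference of -2.58 ± 0.23 (SE; limma adjusted p = 8.2e-04). Atp6v0d2, a subunit of the lysosomal proton pump, had values of 7.48, 7.85 and 8.20 in RD and 6.30, 5.85 and 6.68 in HFD, a difference of -1.56 ± 0.23 (limma adjusted p = 0.0080). No HFD array reached the RD range in either gene. The secreted glycoprotein gene Creg1 rose by 0.34 ± 0.06 (limma adjusted p = 0.021). The other rises, chosen after their values were seen, were Cd68, a lysosomal protein of macrophages, at 0.60 ± 0.14 (limma adjusted p = 0.046) and Olr1, a receptor for oxidised lipoprotein, at 0.40 ± 0.09 (limma adjusted p = 0.046). Rises numbered 0 on removing HFD replicate 1 or any RD array, 1 without HFD replicate 2 and 2 without HFD replicate 3. Many of these genes are also transcribed by hepatocytes, which make up the bulk of liver RNA.

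Around the receptor, 3 of 17 measured genes of the TREM family, DAP12 partners and their signalling rose and 0 fell. Over all genes 3.11% rose and 2.24% fell, and the count of this list was not tested against these shares. The list median was 0.19. Treml4, a TREM-like receptor of myeloid cells, read 9.34, 9.31 and 9.39 in RD and 10.69, 10.09 and 10.33 in HFD, well apart. Its difference was 1.03 ± 0.13 (SE; limma adjusted p = 0.0054), larger than that of 8 of the 9 listed genes. The DAP12 binding receptor gene Cd300lb rose by 0.51 ± 0.07 (limma adjusted p = 0.0073) and Trem3 by 0.38 ± 0.09 (limma adjusted p = 0.046), but Trem3 passed in none of the 6 fits with an array removed (largest adjusted p = 0.146). Removing HFD replicate 2 left the count at 3, and removing each of the others gave 2.

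Partners of the secreted members and other metalloproteinases gave 1 call per list, where 3.11% of all genes rose. In lists of 12 and 11 genes such counts are too small to set against that share. Of 12 genes for partners of osteopontin and galectin-3, 1 rose, with a median of 0.15. It was Cd44, a receptor for hyaluronan and osteopontin, with RD values of 7.79, 7.85 and 7.88 and HFD values of 9.19, 8.60 and 8.56. The groups were far apart, the difference was 0.94 ± 0.15 (SE; limma adjusted p = 0.014), and it did not pass with RD replicate 1 or 2 removed (count 0). The phagocytic receptor gene Mertk was at 0.27 ± 0.10 (limma adjusted p = 0.192) and the integrin chain gene Itga4 at 0.41 ± 0.18 (limma adjusted p = 0.258). Among 11 metalloproteinases and inhibitors other than Mmp12, 1 rose, the inhibitor gene Timp1 (0.58 ± 0.10, limma adjusted p = 0.015), with a median of 0.04, and 0 rose without RD replicate 1. Mmp19 was at 0.27 ± 0.09 (limma adjusted p = 0.139) and Mmp8 at 0.25 ± 0.11 (limma adjusted p = 0.252).

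Among the 4 integrin genes that share or resemble the CD11c complex, Itgb2, the chain that pairs with CD11c, rose by 0.84 ± 0.18 (SE; limma adjusted p = 0.032). Its RD values were 7.95, 7.92 and 7.97 and its HFD values 9.25, 8.46 and 8.65. HFD replicate 1 was again the highest, and the call ended on removing HFD replicate 3 or any RD array (largest adjusted p = 0.110). Itgal was at 0.54 ± 0.14 (limma adjusted p = 0.068) and Itgam at 0.23 ± 0.08 (limma adjusted p = 0.149). The remaining gene, Itgad, chosen after its values were seen, was at -0.25 ± 0.16 (limma adjusted p = 0.428). With 3.11% of all genes rising, 1 call in these 4 integrin genes is too small a count to set against that share. The same holds for 12 macrophage growth and transcription factor genes, of which 1 rose, with a list median of 0.22. It was Tfe3, a factor of the MITF and TFEB family, at 0.30 ± 0.06 (limma adjusted p = 0.034). Tfe3 passed in none of the 6 fits with an array removed. Csf2rb was at 0.51 ± 0.14 (limma adjusted p = 0.077) and Spi1, which encodes PU.1, at 0.48 ± 0.15 (limma adjusted p = 0.112). In that list 1 gene rose with HFD replicate 2 removed and 0 in the other 5 such fits.

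Some Kupffer cell markers and all measured bile duct markers also rose. Of 12 Kupffer cell markers 6 rose and 0 fell, where 3.11% of all genes rose and 2.24% fell. The median of the markers was 0.54, or 0.42 without HFD replicate 1. Slc40a1, the iron exporter, rose by 0.61 ± 0.07 (SE; limma adjusted p = 0.0027), Cd5l, a secreted macrophage protein, by 0.85 ± 0.12 (limma adjusted p = 0.0066) and Timd4, a receptor for dying cells, by 0.67 ± 0.11 (limma adjusted p = 0.016). Clec4f, the marker most specific to Kupffer cells, was chosen after its values were seen and was at 0.29 ± 0.09 (limma adjusted p = 0.119). The summed linear signal of the 12 markers ran from 16223 to 16993 in RD and from 20599 to 27078 in HFD. The count of rises was 2, 2 and 3 without RD replicates 1, 2 and 3, 9 without HFD replicate 2 and 3 without HFD replicate 3.

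Of 6 measured bile duct markers 6 rose, with a median of 0.41, where 3.11% of all genes rose. The cell adhesion gene Epcam rose by 0.54 ± 0.10 (SE; limma adjusted p = 0.019), the keratin gene Krt19 by 0.70 ± 0.14 (limma adjusted p = 0.031) and the transcription factor gene Sox9 by 0.29 ± 0.06 (limma adjusted p = 0.037). Their summed linear signal ran from 1025 to 1121 in RD and from 1431 to 1523 in HFD. These calls were fragile, since 0 passed with RD replicate 1 removed and 1 in each of the other 5 such fits. Of 6 measured monocyte markers 2 rose, Plac8 by 1.16 ± 0.16 (limma adjusted p = 0.0060) and the lysozyme gene Lyz2 by 0.68 ± 0.13 (limma adjusted p = 0.022), and Chil3 was at 0.21 ± 0.09 (limma adjusted p = 0.252). The summed signal of the 6 ran from 1749 to 1856 in RD and from 2486 to 3468 in HFD, and 1 rose on removing any RD array. The part of Kupffer cells, monocytes or bile duct cells in the differences of the 9 genes was not tested.

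Other cell types gave no calls, but their lists hold only 4 to 9 genes. Over all genes 3.11% rose, 2.24% fell and 3926 of 19938 had an unadjusted p under 0.05. Finding 0 calls in so short a list is near the shares of rises and falls. Neutrophil (8 genes), dendritic cell (8), T and NK cell (9), B cell (4), endothelial (7), stellate cell and fibroblast (8) and hepatocyte markers (7) had 0 rises and 0 falls in limma, and 0, 1, 0, 0, 1, 0 and 0 members at an unadjusted p under 0.05. Their smallest p belonged to S100a8 (-0.21 ± 0.09), Cd209a (0.43 ± 0.17), Cd3e (0.23 ± 0.12), Cd79a (-0.23 ± 0.14), Cdh5 (0.26 ± 0.08), Dcn (0.15 ± 0.07) and Tat (-0.13 ± 0.07), each as a difference with its SE. The hepatocyte enzyme gene Tat, read to check the tissue label, had means of 14.30 in RD and 14.17 in HFD, near the top of the table's range.

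Of the 20 lists, the 9 genes included, 15 had their highest mean on HFD replicate 1. The mean of the 9 genes, each taken relative to its RD mean, was 0.79 on that array, 0.52 on HFD replicate 2 and 0.51 on HFD replicate 3, against 0.00, -0.09 and 0.10 on the RD arrays. Kupffer cell markers stood at 0.75, 0.29 and 0.53 on the HFD arrays in the same order, monocyte markers at 0.63, 0.29 and 0.30, and T and NK cell markers at 0.58, -0.07 and 0.08. The genes related to the CD11c complex stood at 0.58, 0.09 and 0.35 and dendritic cell markers at 0.24, 0.02 and 0.09. The median of the T and NK cell markers went from 0.23 to 0.08 without HFD replicate 1. Bile duct markers were nearly level over the HFD arrays, at 0.49, 0.41 and 0.41. Of the 9 genes, Lgals3, Cd63, Tyrobp and Itgax were highest on HFD replicate 1, whereas Mmp12 and Lpl were highest on replicate 2 and Gpnmb and Cd9 on replicate 3. Without HFD replicate 1, 4 members rose and the median over the 9 was 0.46.

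**Figure D3:**
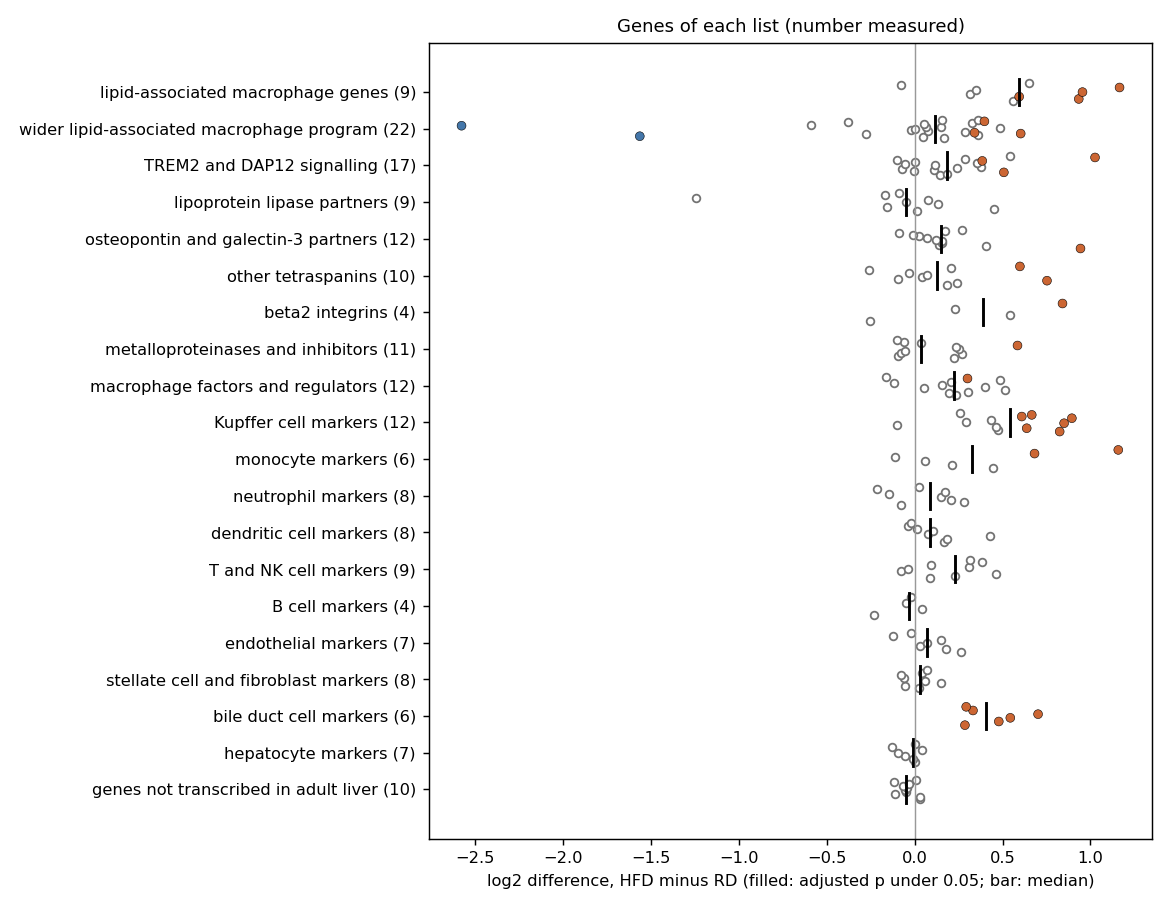
Log2 difference, HFD minus RD (x axis), of every measured gene in each list (y axis, number measured in brackets), with genes that passed the test filled (orange higher, blue lower), the others open, and the list median as a black bar. Medians are highest for the lipid-associated macrophage genes (0.59), Kupffer cell markers (0.54) and bile duct markers (0.41). Beta2 integrins (0.39) and monocyte markers (0.33) come next. Hepatocyte markers and the background list, labelled as genes not transcribed in adult liver, stay around 0.

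**Figure D4:**
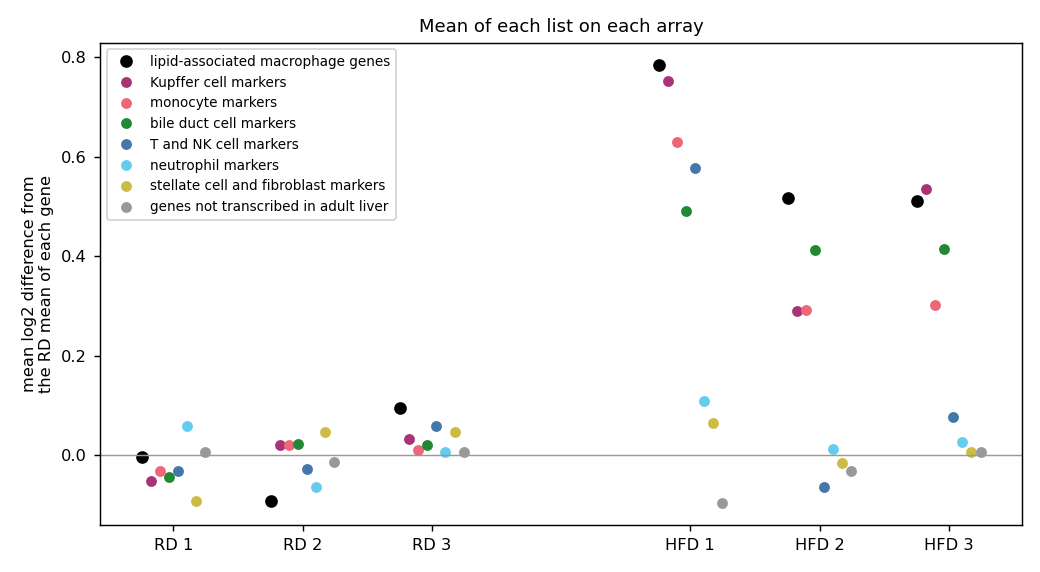
Mean over the genes of a list (colours) of the log2 difference from each gene's RD mean (y axis) on each of the 6 arrays (x axis). The 9 genes reach 0.79 on HFD replicate 1, where T and NK cell markers also stand at 0.58, and bile duct markers lie between 0.41 and 0.49 on all HFD arrays.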

How the data were processed

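Liver RNA of 6 samples was hybridised to GeneChip arrays. The authors deposited log2 expression values, 1 for each probe set on each array. Their base was inferred from the values (2.28 to 14.86), with summarisation and normalization not given in the sources used here. Array medians ran from 7.06 to 7.11, and the values were used unchanged. No detection call, scan date or batch was used here. Precision is limited by having 3 arrays per diet.

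Of 35512 rows, 21789 had 1 gene symbol in the platform annotation, which can be old. The brightest probe set per gene (mean of 6 arrays) left 19938 genes. Diet was fitted in limma 3.58.1 (lmFit, eBayes; R 4.3.3) with a threshold of 0.05, and the fit was checked on simulated data. The members and all lists were chosen with earlier results of these data known. Named are all members, and in each other list up to 3 genes, those of smallest unadjusted p. Others are said to be chosen after their values were seen. The labels state no pairing by replicate number, so the main fit did not pair the arrays. Promoter windows came from RefSeq, GRCm38.p6. Alternatives covered scaling, filters, probe sets, variance models, the replicate block, a minimum fold of 1.5 and removal of each array in turn.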

Additional observations from a re-analysis of the deposited data

How the results depend on the processing

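All 9 differences kept their sign under every alternative that gave a value, and the median of 0.59 ran from 0.46 to 0.69 with 1 array left out. The count of 4 rises was 1 when every row of the table was tested, 0 with no variance moderation, and 2 to 5 with 1 array left out, the lowest without RD replicate 2. Testing every row left Cd9 and lost Gpnmb (0.59, adjusted p = 0.071), Mmp12 (1.17, adjusted p = 0.054) and Lgals3 (0.95, adjusted p = 0.063). With no moderation the adjusted p values of limma's unmoderated model were 0.135, 0.135 and 0.144 for the same genes and 0.101 for Cd9 (0.93). Tyrobp passed with median centring (0.67), among brighter genes (0.65, adjusted p = 0.033) and with an intensity trend and robust prior (0.65, adjusted p = 0.043). With 1 array left out the differences ran from 0.50 to 0.69 for Gpnmb, 0.76 to 1.08 for Lgals3, 0.36 to 0.74 for Cd63, 0.25 to 0.54 for Lpl and 0.46 to 0.82 for Tyrobp. Gpnmb, Mmp12 and Itgax are not among the brighter genes, so that filter gave them no value. The replicate block gave 4 rises and changed no member's call. Deviations of same-numbered arrays correlated at -0.11, 0.00 and 0.12 across genes. The labels state no pairing, and these values cannot exclude one, for example one that touches some genes only. The causes of the lost calls were not tested.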
